A study of Homo sapiens with 10 samples.

Results

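The well-expressed long noncoding RNAs (lncRNAs) of NB4 cells were 275 of the 60603 genes measured and 1.63% of the 16840 genes that the deposited tables type as lncRNA. NB4 is a human cell line derived from acute promyelocytic leukemia. Its RNA was sequenced in 10 libraries from 2 experiments. In the GSE1 knockdown experiment, a lentivirus brought in pLKO.1 puro without an insert (EV) or with an shRNA against GSE1, either shA1 or shB2, and RNA was taken 48 h later, with 2 libraries each. In the MC2580 experiment, cells received DMSO or 2 µM MC2580, an inhibitor of the histone demethylase LSD1, for 24 h, again with 2 libraries each. All groups are thus derivatives of a single leukemia line, and the control cells of the first experiment also carry a lentiviral vector.

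The members were selected on their own levels: each gene typed lncRNA whose base mean reached 200 or more in the tables of both experiments. A base mean is the average, over all libraries of an experiment, of the read count divided by the library's size factor. The tables used here hold 1 such mean per experiment, over 6 and over 4 libraries, and no value per library. The knockdown table lists a base mean beside the comparison of each hairpin with EV, and the 2 columns were identical in all 60603 genes, so they were read as 1 mean over EV, shA1 and shB2. Levels are therefore given without a replicate error, no difference was tested, and the groups within an experiment were not compared. For the same reason GSE1 itself, with base means of 2963 in the knockdown experiment and 4441 in the MC2580 experiment, is no check of the knockdown, since the first value was read as an average of EV with both hairpins. The depth of each library is unknown, and the base means of all genes summed to 40543130 and 41201112.

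Of 8 myeloid marker genes, 7 had base means over 500 in both experiments, led by MPO, the myeloperoxidase of promyelocyte granules, at 506765 and 824818. ELANE, which encodes neutrophil elastase, was at 1.1 and 3.87. Of 12 markers of other cell types, 8 stayed under 50 in both, among them CD3E, MS4A1 and ALB, whereas CD3D, EPCAM, KRT8 and KRT18 lay between 143 and 906. In such bulk RNA, fewer cells that transcribe a gene and less of its RNA per cell cannot be told apart.

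lncRNAs are transcripts that are not known to encode proteins and are often spliced and polyadenylated like messenger RNAs. Some work as RNA, by scaffolding nuclear bodies or by binding proteins and microRNAs. Others are best known as precursors that carry small nucleolar RNAs (snoRNAs) or microRNAs, and many are transcribed from the promoter or across the body of a protein-coding gene. Most are present at far lower levels than messenger RNAs.

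The levels of the 275 members spanned 2 orders of magnitude. In the knockdown experiment they ran from 200.3 to 21984 with a median of 434, and in the MC2580 experiment from 215 to 21511 with a median of 552. The 9485 protein-coding genes past the same threshold had medians of 1785 and 1664. The members held 73.3% and 72.6% of the summed base mean of all lncRNAs, but only 0.652% and 0.787% of that of all genes. The sum was concentrated, as 10 members held 33.6% of it in the knockdown experiment and 31.2% in the MC2580 experiment, and 9 genes were among these 10 in both. The order of the members was much alike in the 2 experiments (Spearman's rho 0.890 over 275 genes, each point being the mean of a whole experiment).

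**Figure D1:**
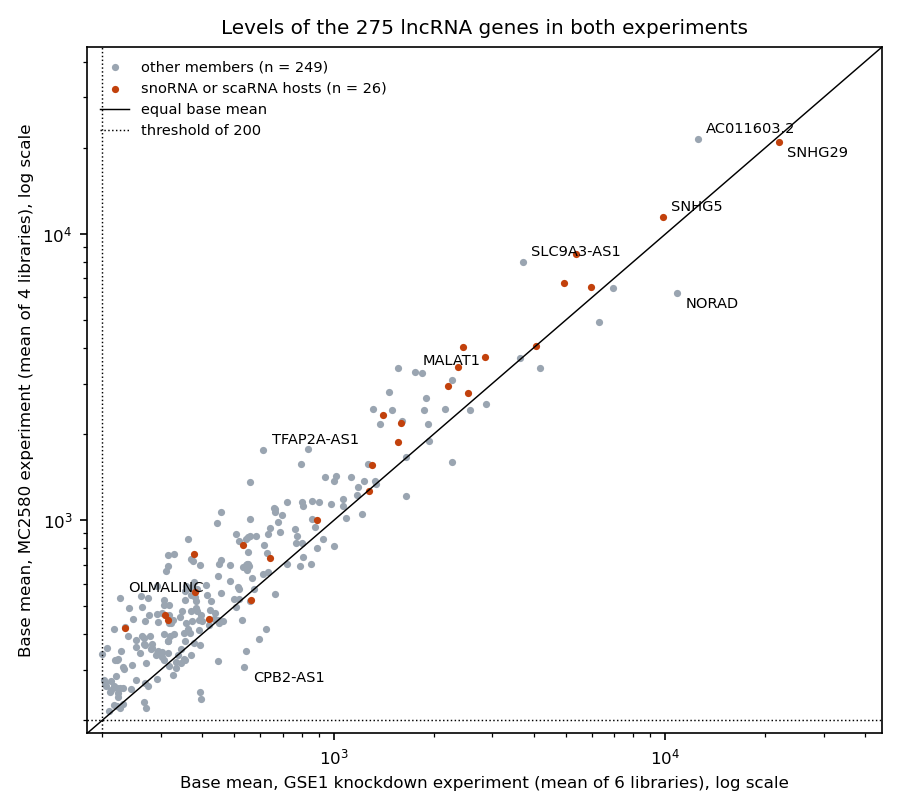
Base mean of each of the 275 members in the GSE1 knockdown experiment (x axis) and in the MC2580 experiment (y axis), both on a log scale, with the 26 host genes of small nucleolar or small Cajal body RNAs in orange, the line of equal base means and dotted lines at the threshold of 200. SNHG29 and AC011603.2 lie at the top right, NORAD below the line, and most points above it.

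The threshold cut through a continuous distribution. The 3 members just inside it were AC005332.5 with base means of 200.3 and 342, PRKCQ-AS1 with 202 and 277, and PTOV1-AS2 with 203 and 269 in the knockdown and the MC2580 experiment. The 3 lncRNAs just outside were AL138756.1 with 246 and 199, TRIM52-AS1 with 198 and 301, and AL603783.1 with 235 and 198. In all, with these last 3 included, 88 lncRNAs passed in the MC2580 experiment alone and 19 in the knockdown experiment alone.

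Genes can be compared with each other only per length of transcript, and base means were divided by the length of each gene's merged exons. The members had a median of 99.5 base mean units per kb in the knockdown experiment and 128 per kb in the MC2580 experiment. The 10 members with the highest level per kb, averaged over both experiments, were AC093484.3, AC011603.2, AC125611.3, AC006064.4, SNHG29, NORAD, SNHG1, AC125603.2, SNHG15 and AC015674.1. Of these 10, 4 had at least 50% of their exonic bases inside exons of protein-coding genes, 4 shared none, and AC011603.2 and SNHG29 shared a smaller part.

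AC093484.3 (chr17:16382152-16382669 on GRCh38, minus strand) was first by this measure, with 6231 per kb in the knockdown experiment and 5546 per kb in the MC2580 experiment. All of its exonic bases lie in exons of UBB, a polyubiquitin gene read from the other strand, which had 32485 and 34068 per kb. AC006064.4 (chr12:6537794-6538370, minus strand) likewise lies wholly in exons of GAPDH, the glycolytic enzyme, with 2228 and 3368 per kb against 70038 and 79776 per kb for GAPDH. AC015674.1 lies wholly in exons of KPNB1, an importin, and AC125611.3 had 97.9% of its exonic bases in exons of coding genes. The coding gene sharing the most of them was TUBA1C, an alpha-tubulin gene whose sequence is close to that of other tubulin genes. AC011603.2, named TUBA1B-AS1 in GENCODE 44, had 35.5% of its exonic bases in exons of coding genes. The alpha-tubulin gene TUBA1B shared the most of them. AC011603.2 had 2713 and 4656 per kb against 21300 and 22538 per kb for TUBA1B. The library kit does not mark the strand, so reads of these lncRNAs and of the coding genes on top of them cannot be told apart, and what part of these levels the lncRNAs themselves hold was not tested.

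The other members of the 10 shared few or no exonic bases. SNHG29, a snoRNA host on chr17:16438767-16480249, had base means of 21984 and 20894, or 2457 and 2335 per kb. Of its exonic bases, 5.59% lay in exons of coding genes. LRRC75A, the coding gene sharing the most of them, was itself at 17.8 and 13.6 per kb. NORAD had 2004 and 1151 per kb, SNHG1 1505 and 1637 per kb, and SNHG15 1252 and 1712 per kb, and none of these shared an exonic base with a coding gene. AC125603.2 (chr12:116661582-116698065, plus strand), which has no gene name in GENCODE 44, had base means of 1338.7 and 1339.2 and 1528 and 1529 per kb, and overlapped no protein-coding gene.

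Shared exons were common among the members as a whole. At least 1 exonic base lay in an exon of a protein-coding gene in 175 of 275 members (63.6%), against 37.4% of the 6536 other annotated lncRNAs with a base mean over 0 in both experiments. The shared part came to at least 50% of the exonic bases in 54 members (19.6%, against 9.50% of the other lncRNAs) and to all of them in 17 (6.18%, against 3.03%). The members also had longer merged exons, with a median of 4620 bases against 1794 bases, and the part of length in these shares was not tested. Among the 54, the coding gene that shares the most bases was higher per kb in both experiments in 32 cases and the lncRNA in 16. EPB41L4A-AS1 and SNHG6 show the second kind, with 303 and 1133 per kb in the knockdown experiment while their coding partners EPB41L4A and MCMDC2 were at 0.192 and 1.74 per kb.

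**Figure D2:**
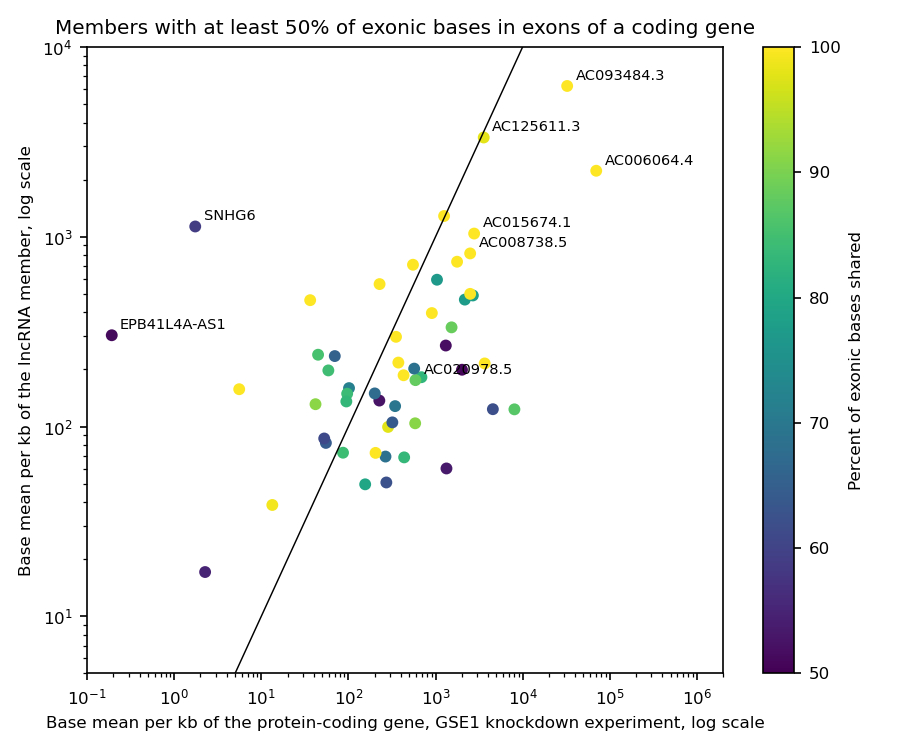
Base mean per kb in the GSE1 knockdown experiment of the 54 members with at least 50% of exonic bases in exons of protein-coding genes (y axis). The x axis gives the coding gene that shares the most of these bases. Both axes are on log scales, points are coloured by the percent shared with any coding gene, and the line marks equal levels. The points for AC006064.4 and AC093484.3 lie far to the right of the line, lower than GAPDH and UBB, and those for EPB41L4A-AS1 and SNHG6 far to the left of the line.

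By position, 161 members (58.5%) overlapped a protein-coding gene on the other strand, against 49.0% of the other lncRNAs. Another 27 overlapped a coding gene on their own strand alone, and 22 overlapped none but began within 1000 bases of the start of a coding gene read in the opposite direction. In all, 84 members (30.5%, against 19.7%) were such head-to-head neighbours, including those that also overlap a coding gene. The part of the members' greater length in these shares of positions was not tested. The other 65 members neither overlapped nor lay head to head with a coding gene, among them NORAD, MALAT1 and NEAT1. The members lay on 23 chromosomes, with 27 on chromosome 7, 24 on chromosome 17 and 23 on chromosome 19.

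Small RNAs were carried by a larger share of the members than of other lncRNAs. snoRNAs are short nuclear RNAs that guide the chemical modification of ribosomal RNA, with the box C/D class guiding ribose methylation and the box H/ACA class guiding pseudouridylation, and most human snoRNAs are cut out of the introns of a host transcript. Small Cajal body RNAs (scaRNAs) do the same for spliceosomal RNAs. Of the 275 members, 26 (9.45%) held a snoRNA or scaRNA gene of GENCODE 44 wholly within the gene on the same strand, against 25 of the 6536 other lncRNAs (0.382%). Together they held 53 snoRNA and 2 scaRNA gene entries of the annotation. Some entries cover nearly the same bases, such as those named SNORA16A, so there are fewer separate snoRNAs than entries. These hosts took 28.9% of the members' summed base mean in the knockdown experiment and 27.9% in the MC2580 experiment, and their median level was 308 and 417 per kb, against 90.9 and 119 per kb for the other members. Since the members were chosen for their levels, this is a description of which lncRNAs are abundant in these cells. As with shared exons, the part of the members' greater length in the share of hosts was not tested, here or for the microRNA hosts below.

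Box C/D snoRNAs share a C box, TGATGA, near their 5′ end and a D box, CTGA, near their 3′ end, which bind the core proteins of the particle. Both boxes, as these exact letters, stood in the first 20 and the last 15 bases of 14 of the 24 snoRNA entries named SNORD. They stood so in 0 of the 27 entries named SNORA, the name of the box H/ACA class. The sequences below, from GENCODE 44 transcripts on GRCh38, show the small RNAs carried by 3 of the most abundant hosts, with the boxes in capitals. SNORD49A lies at chr17:16440036-16440106 on the plus strand in SNHG29, SNORD27 at chr11:62855012-62855083 on the minus strand in SNHG1, and SNORD12 at chr20:49280683-49280772 on the plus strand in ZFAS1.
SNORD49A: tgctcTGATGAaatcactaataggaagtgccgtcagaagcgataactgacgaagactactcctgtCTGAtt
SNORD27: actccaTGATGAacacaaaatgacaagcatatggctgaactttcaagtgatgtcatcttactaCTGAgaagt
SNORD12: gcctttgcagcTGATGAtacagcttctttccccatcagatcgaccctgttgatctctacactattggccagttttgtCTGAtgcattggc

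The hosts of box C/D snoRNAs included SNHG29, SNHG1, SNHG5 and ZFAS1. SNHG1 carries 6 differently named SNORD genes and begins 51 bases from the start of SLC3A2, an amino acid transporter subunit, on the other strand. It had base means of 5982 and 6507, with SLC3A2 at 10760 and 15063. SNHG5, with SNORD50B, had 9841 and 11420, or 781 per kb and 906 per kb. ZFAS1, with SNORD12, SNORD12B and SNORD12C, had 4080 and 4062 and began 248 bases from the start of ZNFX1, which had 3650 and 2197. SNHG16, with SNORD1A, SNORD1B and SNORD1C, had 2368 and 3418.

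The hosts of box H/ACA snoRNAs included SNHG17, with SNORA71A to SNORA71D, at 5380 and 8519, SNHG15, with SNORA9, at 4937 and 6749, and SNHG3, with SNORA73A and SNORA73B, at 2534 and 2789. DANCR, which holds SNORA26 and also the microRNA gene MIR4449, had 2455 and 4014. SNHG12, with SNORA16A, SNORA44 and SNORA61 beside SNORD99, had 1555 and 1872, and SNHG7, with SNORA17A and SNORA17B, had 2206 and 2938. The scaRNA hosts SNHG20 (SCARNA16) and SNHG10 (SCARNA13) were among the lowest hosts, at 309 and 468 and at 234 and 421. The base means of GAS5, a gene first found through growth arrest and whose spliced RNA is broken down when ribosomes translate it, were 6314 and 4938. Its snoRNAs are listed by RefSeq but not by GENCODE 44. With RefSeq genes, for which no strand was used, 33 of the 275 members held a snoRNA or scaRNA. So did 70 of the 6536 other lncRNAs, or 1.07%, against 0.382% of them with GENCODE 44. The members' share thus exceeded that of other lncRNAs by a smaller factor with RefSeq than with GENCODE 44.

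Of 31 snoRNA host genes listed from general knowledge, 28 were found as lncRNAs and 22 were members. The other 6 had base means under 200, and 1 of them was under 10 in both experiments. SNHG4 (1402 and 2335), SNHG6 (2863 and 3724), SNHG8 (1592 and 2180), SNHG11 (530 and 817), SNHG19 (377 and 762), SNHG26 (888 and 1000.4), SNHG30 (316 and 448) and EPB41L4A-AS1 (1299 and 1554) complete the listed members.

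**Figure D3:**
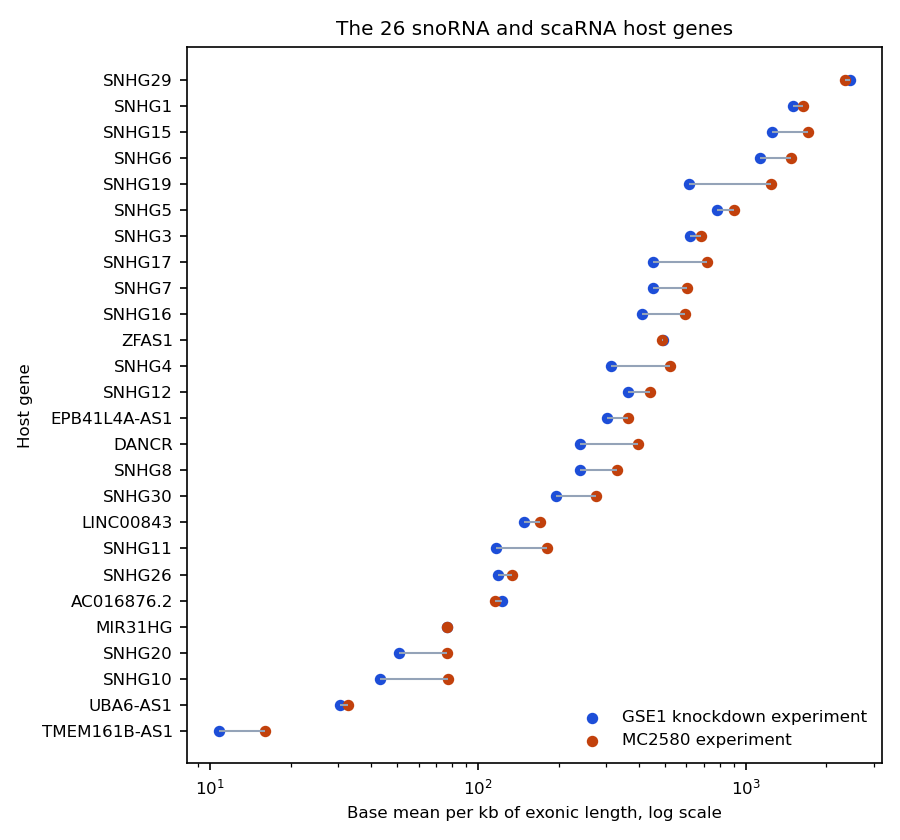
Base mean per kb of merged exons, on a log scale, of the 26 members that host a snoRNA or scaRNA, in the GSE1 knockdown experiment (blue) and the MC2580 experiment (orange), ordered by their mean. SNHG29, SNHG1, SNHG15 and SNHG6 are above 1000 per kb in both, and 22 of 26 orange points lie to the right of the blue ones.

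microRNA genes lay inside 23 members (8.36%) on the same strand, against 1.62% of the other lncRNAs. A microRNA is cut from a hairpin in its primary transcript and recognises messenger RNAs mainly through its seed, bases 2 to 8. Mature sequences of RefSeq were matched for 20 of the 23 hosts and gave 46 mature RNAs with 45 seeds. The levels of the mature microRNAs were not measured, since these libraries hold longer RNA. The following are the main arms for the hosts best known in blood cells, on GRCh38, with seeds in capitals.
miR-223-3p: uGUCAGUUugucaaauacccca
miR-142-3p: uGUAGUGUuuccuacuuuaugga
miR-142-5p: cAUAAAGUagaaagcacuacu
miR-15a-5p: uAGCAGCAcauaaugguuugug
miR-16-5p: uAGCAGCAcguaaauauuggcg
miR-503-5p: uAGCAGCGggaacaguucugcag
miR-23a-3p: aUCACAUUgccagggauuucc
miR-27a-3p: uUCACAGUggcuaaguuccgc
miR-24-3p: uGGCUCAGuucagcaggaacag

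The host of miR-223, a microRNA of granulocyte maturation, is listed in the tables as AL034397.3 and is MIR223HG in GENCODE 44 (chrX:66015414-66020426, plus strand). Its base mean was 793 in the knockdown experiment and 1568 in the MC2580 experiment, or 177 and 349 per kb. The host of miR-142, a microRNA found throughout blood cells, is AC004687.1, now MIR142HG (chr17:58330879-58332523, minus strand), with 1264 and 1566, or 768 and 952 per kb, the most per kb of these hosts. DLEU2, in the region of chromosome 13 often deleted in chronic lymphocytic leukemia, holds miR-15a and miR-16-1 and had 699 and 1039. The mature RNAs of these last, printed above, carry the same seed, the only seed shared by any of the 46. MIR503HG, whose miR-503-5p differs from it in the last base of the seed, had 264 and 499. AC020916.1, now MIR23AHG, with the cluster of miR-23a, miR-27a and miR-24-2, had 269 and 443.

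Of 24 microRNA host genes listed from general knowledge, 23 were found as lncRNAs, 8 were members and 7 were under 10 in both experiments. MIR142HG was not on that list. Beside the other hosts described above, the listed genes FTX (662 and 1067), MIR600HG (304 and 473), MIR646HG (517 and 533) and MIR4435-2HG (545 and 348) were members. MIR4435-2HG is described as a regulator of the life span of short-lived myeloid cells, in part through the neighbouring proapoptotic gene BCL2L11. It was one of the 60 members lower in the MC2580 experiment after the totals of both tables were made equal.

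The lncRNAs of nuclear bodies and chromatin were represented by 9 members of 16 found from a list of 17. MALAT1, which resides in nuclear speckles, had 1753 and 3304, or 168 per kb and 317 per kb. NEAT1, the scaffold of paraspeckles, had 2574 and 2433, or 113 per kb and 107 per kb. Although the base means of NEAT1 and MALAT1 were alike in size, NEAT1 was lower per kb of merged exons. The merged length of NEAT1, 22767 bases, is close to that of its longest transcript, 22743 bases. A shorter transcript as length would give more per kb. Which transcripts the reads came from, and how well poly(A) selection captures either RNA, was not tested. TUG1 had 6951 and 6470 and begins 471 bases from the start of MORC2, and GENCODE 44 types it as protein-coding. PVT1, the neighbour of MYC, had 1604 and 2220. JPX and FIRRE, noncoding genes of the X chromosome linked to its inactivation and folding, had 769 and 833 and 253 and 381. H19, an imprinted gene, had 356 and 565, HOTTIP, at the end of the HOXA cluster, 264 and 392, and LINC01578, named CHASERR in GENCODE 44, 928 and 861. The 7 listed genes that were not members included 3 under 10 in both experiments.

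NORAD, a single-exon gene at chr20:36045618-36051018 on the minus strand that takes part in the response to DNA damage, had base means of 10821 in the knockdown experiment and 6215 in the MC2580 experiment. Of the lncRNAs linked to p53 and DNA damage, 9 of 12 listed were found and NORAD and NEAT1 alone were members, while 5 were under 10 in both experiments. Of the lncRNAs linked to translation and messenger RNA decay, 8 of 9 listed were found as lncRNAs and 6 were members: NORAD, GAS5, DANCR, SNHG3, EPB41L4A-AS1 and OIP5-AS1, the last with 4198 and 3416. The 2 that were not members were LINC01138, at 160 and 205, and HULC, a liver RNA, at 7.40 and 9.50. TERC, the template RNA of telomerase and the single lncRNA found from the list of RNAs of small ribonucleoprotein particles, was not a member at 4.92 and 4.02. The kit selects polyadenylated RNA, and how much of the TERC in the cells it captures was not tested.

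The list of lncRNAs described in myeloid and inflammatory cells gave 28 lncRNAs of 31 listed, of which 9 were members and 8 under 10 in both experiments. LINC00926 had 1314 in the knockdown experiment and 2452 in the MC2580 experiment, or 358 per kb and 668 per kb. CCDC26, from a locus altered in myeloid leukemia, had 1232 and 1370. CRNDE, described in many tumours, had 677 and 986, and its neighbour IRX5 had 454 and 738. WT1-AS, which begins 46 bases from the start of the leukemia-associated transcription factor gene WT1, had 558 and 1007, with WT1 at 2704 and 3282. BISPR, an interferon-inducible RNA that begins 56 bases from BST2, had 322 and 436, with BST2 at 8855 and 8456. HOXA11-AS had 233 and 302 and MAFG-DT 229 and 349, with MAFG at 4712 and 4754. MIR4435-2HG and AL034397.3, given above, complete the 9. Both are also in the list of microRNA hosts.

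The locus of CEBPA, the transcription factor that drives granulocyte differentiation, held 3 members within 2600 bases of its start. CEBPA-DT begins 323 bases from the start of CEBPA and runs the other way, at 240 in the knockdown experiment and 394 in the MC2580 experiment. AC008738.3 and AC008738.5 lie wholly within exons of CEBPA on the other strand and had 330 and 764 and 394 and 251, so that the first was higher and the second lower in the MC2580 experiment. CEBPA itself was at 6502 and 6303. These 2 members lie near either end of the order of ratios although both lie in the same single-exon gene, and without strand their reads cannot be separated from those of CEBPA. The member AC008738.7 lies farther off, on chr19:33207129-33207639, downstream of CEBPA, wholly in exons of LRP3 on the same strand.

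**Figure D4:**
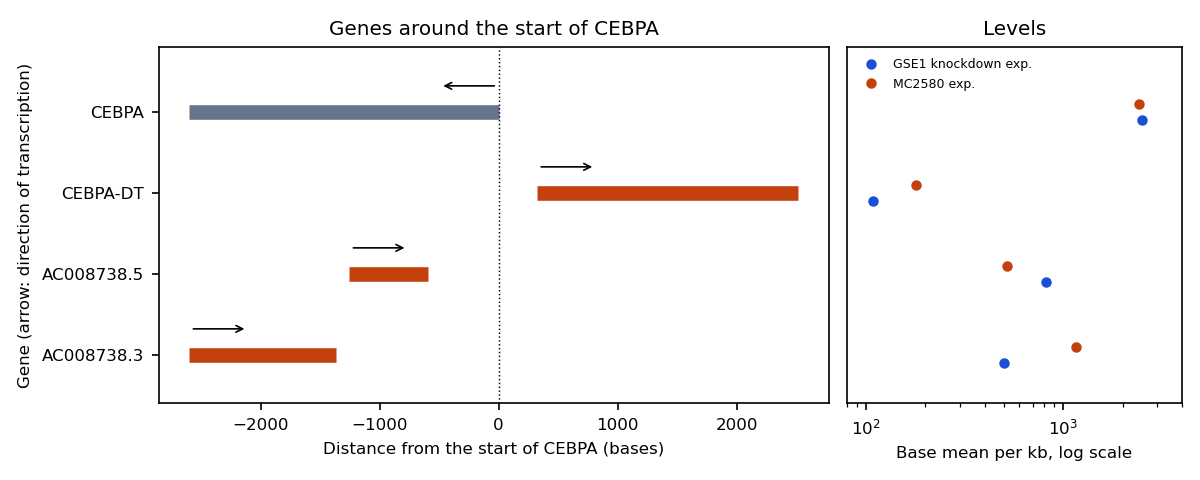
Left, CEBPA and the 3 members near its start, as distance in bases from that start, with arrows for the direction of transcription. Right, their base means per kb on a log scale in the GSE1 knockdown experiment (blue) and the MC2580 experiment (orange), where AC008738.3 and CEBPA-DT are higher and AC008738.5 lower in the MC2580 experiment and CEBPA is nearly level.

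The stretch in which CEBPA-DT begins also lies just upstream of the start of CEBPA, outside it, and is printed because the 2 genes run in opposite directions from either side of it. It is the RefSeq promoter of CEBPA-DT on GRCh38.p14, chr19:33302571-33302870 on the plus strand, from 250 bases before to 50 bases after the start. It was 81.0% G or C, and the capitals mark GGGCGG, the core of the SP1 binding motif, on either strand.
CEBPA-DT: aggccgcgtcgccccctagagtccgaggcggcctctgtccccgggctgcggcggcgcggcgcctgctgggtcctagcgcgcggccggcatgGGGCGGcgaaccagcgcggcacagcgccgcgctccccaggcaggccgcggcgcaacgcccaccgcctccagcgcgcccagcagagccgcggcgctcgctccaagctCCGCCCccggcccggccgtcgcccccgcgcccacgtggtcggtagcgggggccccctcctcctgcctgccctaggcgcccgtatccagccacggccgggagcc

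RefSeq promoters of this kind were matched by name for 161 of the 275 members and numbered 189, as some genes have several. Of these, 71.4% had a ratio of observed to expected CpG of at least 0.6, against 48.9% of all 35116 promoters, and their median GC content was 62.7% against 58.7%. GGGCGG, searched on both strands like the other motifs, occurred in 62.4% of member promoters and 45.0% of all promoters. TATAAA was in 10.1% against 11.5%, CCAAT in 34.9% against 34.6%, TTGCNNAA, the core of the C/EBP motif, in 9.52% against 10.5%, and GAGGAAGT, a PU.1 motif, in 3.70% against 2.59%. No motif is contained in another, though matches of different motifs can overlap. These are shares of letters in a window and say nothing of factors bound there.

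The levels of the members in the 2 experiments were then set against each other as a ratio, the MC2580 experiment over the knockdown experiment, after the totals of both tables were made equal. The experiments were normalised separately, and transduction, time in culture, treatment and any difference in sequencing cannot be told apart in this ratio. The members' median log2 ratio was 0.31 (interquartile range 0.04 to 0.57), and 215 of 275 (78.2%) had a higher level in the MC2580 experiment. Over the 9485 protein-coding genes past the same threshold the median was -0.09 and 41.1% were higher, and over all 9920 genes past it the median was -0.07. With the totals left as deposited the members' median was 0.33, and with ratios centred on the coding genes it was 0.40. Each scaling shifts all log2 ratios by the same amount. The gap between members and coding genes therefore cannot change, and these values are no test of it.

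A ratio of more than 2 in favour of the MC2580 experiment was found in 15 of 275 members (5.45%), against 0.585% of all 9920 genes. In favour of the knockdown experiment it was found in 0 members, against 2.31% of all genes. The excess was not particular to the members. Of the 1060 other lncRNAs with base means of 20 or more in each experiment, 8.77% were over 2-fold higher and 1.79% lower. At 1.5-fold the members split into 65 higher and 7 lower. The share over all genes was not counted at that limit, so this split gives no comparison with other genes. Without replicates these are sizes, not tests.

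**Figure D5:**
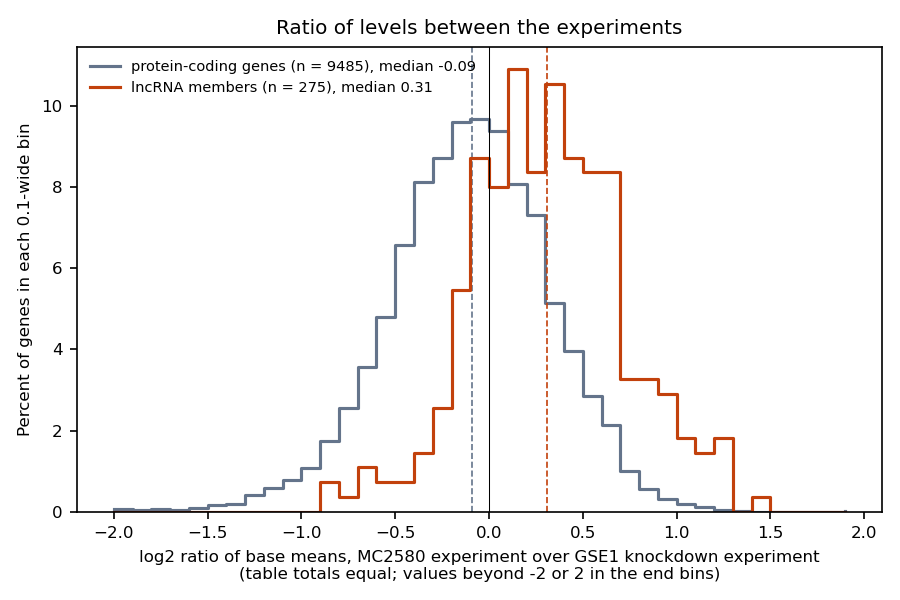
Distribution of the log2 ratio of base means, MC2580 experiment over GSE1 knockdown experiment, in bins of 0.1, as percent of the 275 members (orange) and of the 9485 protein-coding genes past the same threshold (grey), with dashed lines at the medians of 0.31 and -0.09. The members' curve lies to the right over most of its range.

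The 5 members with the highest ratios were TFAP2A-AS1 (log2 ratio 1.5), AC020978.5 (1.26), GAS6-AS1 (1.24), OLMALINC (1.22) and AC008738.7 (1.22). TFAP2A-AS1 (chr6:10409340-10416446, plus strand) had 612 and 1760. It overlaps the transcription factor gene TFAP2A on the other strand, with 25.9% of its exonic bases in coding exons. TFAP2A had 793 and 1555, a log2 ratio of 0.95. AC020978.5 had 558 and 1356, with 88.0% of its exonic bases in coding exons. NFATC3, the transcription factor gene of the NFAT family that shares the most of them, had 5185 and 2712 and was thus lower in the MC2580 experiment. GAS6-AS1 had 316 and 758 and overlaps GAS6 on the other strand, with 6.74% of its exonic bases in coding exons. GAS6 had 41.9 and 101, a log2 ratio of 1.25. OLMALINC, which shares no exonic base with a coding gene, had 226 and 534. AC008738.7 had 364 and 860, and LRP3, in whose exons it lies, had 2947 and 4896.

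The 5 members with the lowest ratios were CPB2-AS1 (-0.83), NORAD (-0.82), AC010761.2 (-0.77), AC008738.5 (-0.67) and MIR4435-2HG (-0.67). CPB2-AS1 had 537 and 306 and begins 262 bases from the start of ZC3H13, a gene of RNA adenosine methylation, which had 12003 and 6508. CPB2-AS1 also has 6.92% of its exonic bases in coding exons. LCP1, the coding gene that shares the most of them, had 70414 and 46582. Per kb, LCP1 was at 13872 and 9177 against 28.0 and 16.0 for CPB2-AS1. Without strand, reads on the shared bases cannot be assigned to either gene. AC010761.2, which overlaps the ribosomal protein gene RPL23A on the other strand, had 398 and 237. NORAD stands out among these in that its level was high and no coding gene shares its exons.

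The median ratio was above that of the coding genes in most classes of members, though not in all. The median log2 ratio was 0.28 in the 100 members without a shared exonic base, 0.32 in the 121 with under 50% shared and 0.31 in the 54 with at least 50%. Of the 15 members over 2-fold higher, 8 were in the last class and 3 in the first. It was 0.37 in the 26 snoRNA and scaRNA hosts, of which 22 were higher, 0.50 in the 23 microRNA hosts, of which 19 were higher, and 0.41 in the 47 single-exon members. By level it was 0.29, 0.34 and 0.30 for members with a mean base mean of 200 to 500, of 500 to 1000 and of 1000 to 3000, and 0.10 for the 15 members above 3000, of which 8 were higher, while the coding genes of the same ranges had -0.09, -0.12, -0.12 and -0.04. The lists gave medians of 0.41 for the 22 snoRNA hosts, 0.64 for the 8 microRNA hosts, 0.52 for the 9 myeloid and 0.45 for the 9 nuclear lncRNAs, against -0.10 for the 6 linked to translation and decay, of which 3 were higher. The 2 members linked to p53 and DNA damage, NORAD and NEAT1, were both lower in the MC2580 experiment, with a median of -0.46.

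A ratio above that of coding genes was not confined to the members or to lncRNAs. The 1060 other lncRNAs whose base means reached 20 or more in each experiment had a median of 0.28, the 70 transcribed unprocessed pseudogenes past the threshold 0.20 and the 42 processed pseudogenes 0.11. The marker MPO took 1.25% of the summed base mean in the knockdown experiment and 2.00% in the MC2580 experiment, and leaving it out of the totals moved the median of the coding genes to -0.08.

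The coding neighbours of head-to-head members had lower ratios than these members, but so did coding genes at large, with a median of -0.09. A member's ratio above that of a coding gene is thus not particular to these pairs. Of the 84 such members, 74 had a partner past the threshold in both experiments, and the median ratio was 0.33 for these members and -0.01 for their partners, with the member's ratio above its partner's in 59 of 74 pairs. Across the pairs the ratios of member and partner had a Pearson's r of 0.24 and a Spearman's rho of 0.19. Across the 54 members with at least 50% shared exonic bases, the ratios of the member and the coding gene sharing the most of them had an r of 0.02 and a rho of 0.09. Pairs share both libraries and scaling, and these values describe the pairs only. Per kb, the partner was higher than the member in both experiments in 57 of the 83 head-to-head pairs with a measured partner and lower in 20, and the median ratio of partner to member per kb was 3.99 in the knockdown experiment and 3.10 in the MC2580 experiment.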

How the data were processed

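Libraries were prepared by the authors from total RNA with the TruSeq RNA v2 kit, which selects polyadenylated RNA and does not mark strand. Per the labels and the study's methods, reads were mapped to hg38 with STAR 2.7, genes were quantified with RSEM and groups were compared in DESeq2; the annotation release is not given in the sources used here. The signal values deposited by the authors, base means over all 6 or all 4 libraries of an experiment, were the only values used. The tables also hold fold changes, standard errors, Wald statistics and p-values of the authors' own comparisons, which were not used here. The fixed plan of a count test needed values per library and was not carried out. Because depth per library is unknown, no interval could be given.

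The members and all lists were chosen with earlier results of these data known. All 275 members were matched by stable identifier to GENCODE 44 on GRCh38, and gene types in the tables were kept (273 are lncRNA in GENCODE 44). Exons of all transcripts of a gene were merged for its length. Small RNA genes had to lie wholly within a member on its strand, except for RefSeq genes. A head-to-head neighbour begins within 1000 bases. Ratios used table totals made equal. The genes named were the 10 highest per kb, the 5 highest and 5 lowest ratios, 3 genes on either side of the threshold and the listed members, with neighbours and partners where a value turned on them. The scripts (Python 3, pandas) were tested on a made-up annotation and made-up base means. A marker gene of the fixed list is not reported here.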

Additional observations from a re-analysis of the deposited data

How the results depend on the processing

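No paired analysis was possible because the tables hold 1 mean per experiment, and for the same reason the planned fits without each replicate and with a replicate block were not run. Of 45 alternative values, 16 stayed within 1.5 times a count or at the same printed value and 29 did not, and the median ratio was above 0 in all of them; with no replicate error, a change of a median or share is a change in its printed digits. With a base mean threshold of 100, 474 genes passed, holding 0.729% of the sum, with a median log2 ratio of 0.30, 30 over 2-fold, 153 head to head, 274 antisense and 80.8 per kb. With a threshold of 500 these were 116 genes, 0.523%, 0.28, 5, 28, 69 and 230 per kb. With the threshold met in at least 1 experiment, the share was 0.696%, the median ratio 0.36, the number over 2-fold 43 and the level 94 per kb. Genes typed lncRNA in GENCODE 44 as well held 0.633% with 114 per kb, against 115 per kb. The median ratio was 0.33 as deposited and 0.40 centred on coding genes, where 23 members passed 2-fold. With totals made equal, 72 passed 1.5-fold. For the counts over 2-fold or 1.5-fold at these other settings, the share over all genes was not counted. With the longest transcript as length the level was 164 per kb, and within 300 bases 52 members lay head to head. Chosen after seeing the data, the members without shared exonic bases gave a median ratio of 0.28, 3 over 2-fold and 100 per kb. At a threshold of 100, 5 genes not in GENCODE 44 were counted but not placed. Depth per library, which sets the precision of each value, is unknown here.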
